A study of Mus musculus with 4 samples.

Results

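The genes examined were 31 genes of the tricarboxylic acid (TCA) cycle and of the carbon routes that feed it or drain it, out of 37310 genes in the table deposited for this series. They were chosen by gene symbol from their known function, by a rule that uses no measured value, although earlier results of these data were known when the list was drawn up. The cycle oxidizes acetyl groups to carbon dioxide in the mitochondrial matrix and passes the electrons on to the respiratory chain. It is also a source of building blocks: citrate leaves the mitochondrion to supply acetyl groups for lipids and histones, and oxaloacetate and 2-oxoglutarate give aspartate and glutamate. Naive mouse embryonic stem cells are known for a supply of 2-oxoglutarate, made from both glucose and glutamine, that serves demethylases of DNA and histones.

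The series holds mRNA-seq of mouse embryonic stem cells (mESCs) of the JM8 line, which comes from the C57BL6/N strain, with 2 libraries of parental wild-type cells and 2 libraries of Bmal1-/- cells. Bmal1 (listed as Arntl) is the transcription factor that forms the activating arm of the molecular clock together with Clock. The Bmal1-/- line is 1 clone made with CRISPR/Cas9 that carries a frame-shifting indel on each allele. Cells of both genotypes grew without feeders on gelatin, in N2B27 with LIF, the Mek inhibitor PD0325901 at 1 µM and the Gsk3 inhibitor CHIR99021 at 3 µM. No age, time course or treatment separates the groups. Since each genotype stands for 1 line, a difference between the lines and an effect of Bmal1 cannot be told apart. The p-values measure only the spread between libraries of the same line, not between lines. The test draws that spread largely from other genes of similar level (18.1 prior degrees of freedom).

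Values are reads per gene divided by a scaling factor of the library (trimmed mean of M values, TMM), and are called normalized values here. Whole reads could be recovered from them, and they came to between 21504265 and 23329034 reads on genes per library. All 8 markers of embryonic stem cells examined were above the filter on low values. Their summed normalized values were 119602 and 117490 in wild-type against 126469 and 129019 in the libraries with the Bmal1-/- label. Of 7 markers of feeder fibroblasts, 5 were at 3 reads or fewer in every library, Dcn and Lum at 0, and the summed value of the list was 69.5 and 75.4 in wild-type against 108 and 97.3. The summed value of 6 primitive endoderm markers was between 171 and 195 in all libraries, and that of 4 primed epiblast markers was 2645 and 2449 in wild-type against 2069 and 2166. The 5 neural markers summed to 2841 and 2543 in wild-type and to 1221 and 1114 in the others, and the part of this difference in the results was not tested. Arntl itself stood at 678 and 733 in wild-type and at 556 and 590 in the libraries with the Bmal1-/- label. By the limma test described below it was lower (log2 fold change -0.30, adjusted p = 0.0011). For the Bmal1-/- line the paper reported no Bmal1 mRNA by RT-qPCR and no detectable Bmal1 protein by Western blot. A count over the whole gene does not test a small indel, and because Arntl mRNA was present in all 4 libraries the second group is called mutant-labelled here, after its label. In bulk samples, fewer cells that express a gene and less of its RNA per cell cannot be told apart.

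Differences were tested with limma on log2(normalized value + 1) over the 14510 genes with a mean of at least 10, all of them adjusted together (Benjamini-Hochberg). A gene is called higher or lower where its adjusted p is under 0.05. All 31 members passed the filter through both groups, with means over the 4 libraries between 453 and 20636. The standard error of their log2 fold changes lay between 0.04 and 0.08.

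Most of the TCA genes differed little, and more of them were lower than higher in the mutant-labelled libraries. By the test, 16 of the 31 members were lower (51.6%), 4 were higher (12.9%) and 11 were not called. Over all genes tested, 28.6% were lower and 24.0% higher, 52.6% in all. The split over all genes depended on the scaling, with 3488 higher and 4151 lower in the deposited TMM values and 4200 higher and 3194 lower with equal library totals, where 5 members were higher and 13 lower. Among genes with a mean of at least 100, tested by themselves, the shares were 36.8% lower and 24.2% higher, and 3.03% passed 2-fold. The members are highly expressed, with their median level at percentile 87.6 of the genes tested. No share was taken over genes matched to that level. No member passed 2-fold, against 7.21% of all genes tested, and the count was also 0 in edgeR, in DESeq2 and at an unadjusted p under 0.05. The median log2 fold change of the members was -0.12, or 91.9% of the wild-type value. It was -0.03 over all genes tested and -0.06 over those with a mean of at least 100. In 22 members both mutant-labelled libraries lay below both wild-type libraries, and in 5 both lay above. Such separation was common with 2 libraries a group, at 41.4% (below) and 34.6% (above) of all genes tested, or 76.0% together. The log2 fold changes ran from -0.61 for Slc25a1, the mitochondrial citrate carrier, to 0.36 for Pcx and Sucla2.

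**Figure D1:**
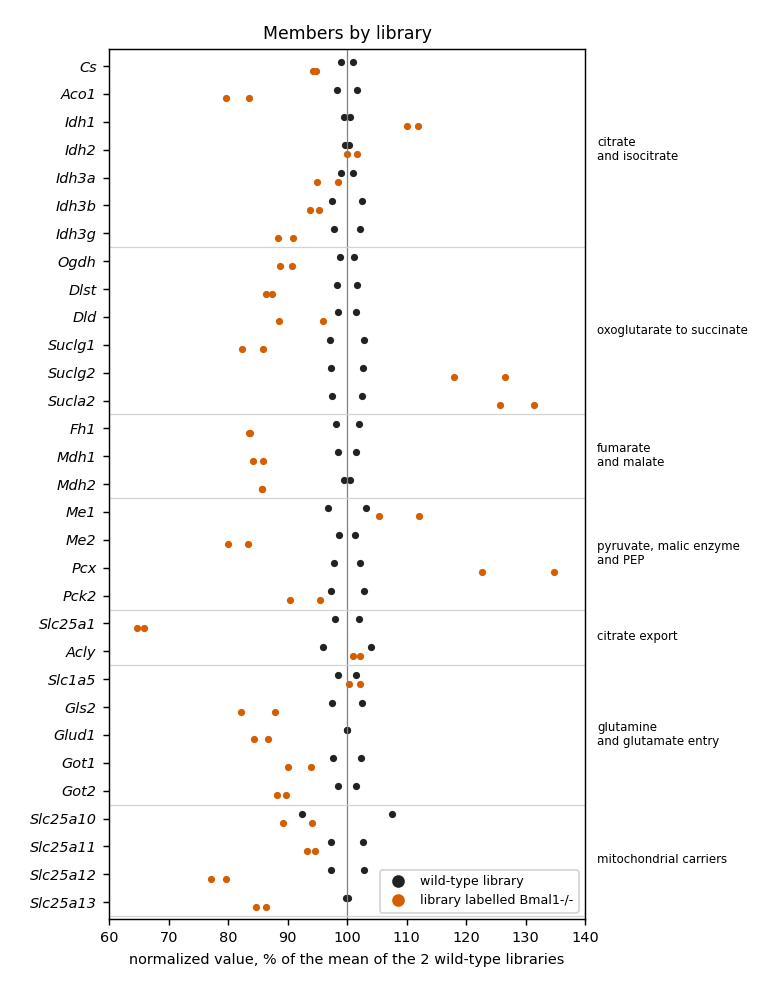
Normalized value of each of the 31 members in each library, as a percentage of the mean of the 2 wild-type libraries (x axis), with members in rows grouped by role; black points are wild-type libraries and orange points are mutant-labelled libraries. The orange points lie left of the black ones in 22 rows, furthest for Slc25a1, and right of them in 5 rows, furthest for Pcx and Sucla2.

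**Figure D2:**
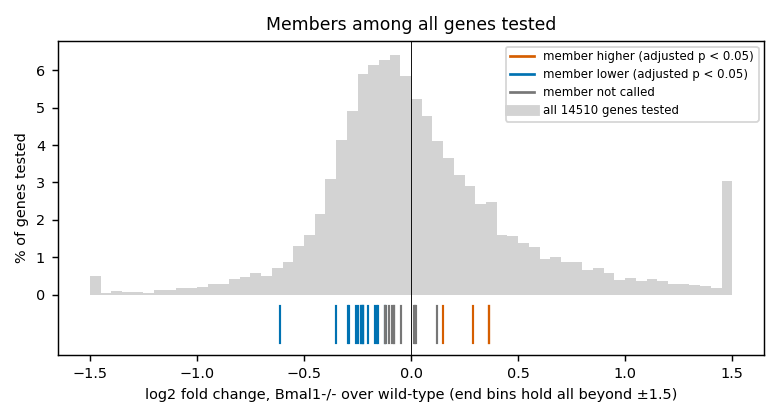
Distribution of the log2 fold change over the 14510 genes tested (grey bars, percentage of genes in each bin) with a tick under the axis for each of the 31 members, coloured by its call. The members lie between -0.61 and 0.36, with 16 lower (blue), 4 higher (orange) and 11 not called (grey).

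Levels of different genes were compared per kilobase of annotated exon, over all transcripts of a gene. This length counts every annotated exon, also of transcripts that may not be expressed here, so the order depends in part on the annotation. On this scale the wild-type levels spanned 33.5-fold. The highest were Acly (3878), the cytosolic enzyme that splits exported citrate into acetyl-CoA and oxaloacetate, Mdh2 (3695), the mitochondrial malate dehydrogenase, and Cs (3458), the citrate synthase that starts the cycle. A group of aminotransferase, dehydrogenase and shuttle genes followed, namely Mdh1, Glud1, Got2, Got1, Idh2 and Idh1, with levels per kilobase between 1849 and 2193. The lowest were Slc25a12 (161), Slc25a10 (137) and Pcx (116). Of the 30 neighbouring pairs in this order, 7 had overlapping wild-type libraries, among them Mdh1 with Glud1, Got2 with Got1 and Sucla2 with Suclg1. The order was similar in the mutant-labelled libraries, with Acly still first. Slc25a1 moved from place 11 to place 14, Mdh1 from 4 to 9 and Idh1 from 9 to 4, and Sucla2 from 23 to 20.

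**Figure D3:**
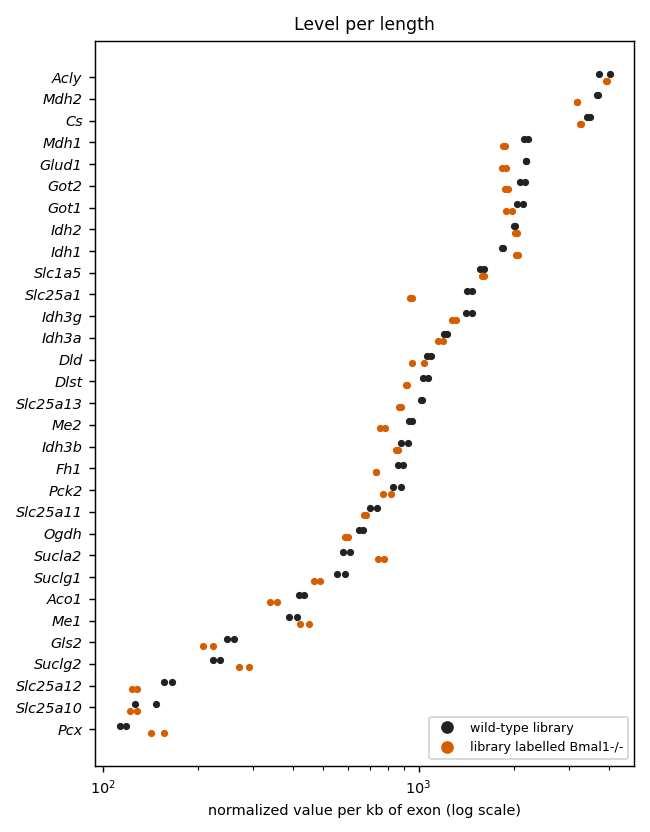
Normalized value per kilobase of exon (x axis, log scale) of the 31 members in each library, ordered by the wild-type mean; black points are wild-type libraries and orange points are mutant-labelled libraries. Acly, Mdh2 and Cs stand above the rest and Slc25a12, Slc25a10 and Pcx below it.

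Because Bmal1 with Clock binds the E-box CACGTG, these letters were looked for in the RefSeq promoters of the members, each a window from 250 bases before to 50 bases after an annotated start site (build GRCm38.p6). Promoters were found for 27 of the 31 members. Of these 27 genes, 4 had CACGTG in at least 1 promoter (14.8%). Among the genes tested that had a promoter by symbol, the share was 11.8%, and it was 7.15% of all promoters of the table. CACGTG is its own reverse complement, so both strands were searched at once. The stretches that hold it are shown here because they are the places in these promoters where the letters of the Bmal1 motif occur, with the motif in capitals and up to 40 bases on either side within the window. They are written 5′ to 3′ on the strand of the gene.
Slc25a1, chr16:17928413-17928469 (minus strand, motif start at -239 from the start site): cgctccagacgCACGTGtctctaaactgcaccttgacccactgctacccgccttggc
Slc25a13, chr6:6217253-6217338 (minus strand, motif at -125): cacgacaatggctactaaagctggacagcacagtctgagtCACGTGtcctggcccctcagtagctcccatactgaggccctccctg
Ogdh, chr11:6292020-6292105 (plus strand, motif at -110 from 1 of its start sites): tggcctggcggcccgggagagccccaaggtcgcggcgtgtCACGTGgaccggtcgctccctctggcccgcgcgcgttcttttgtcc
Ogdh, chr11:6292377-6292462 (plus strand, motif at -141 and -162 from 2 further start sites): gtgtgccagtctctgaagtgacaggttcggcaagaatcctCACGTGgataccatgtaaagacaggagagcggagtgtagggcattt
Pcx, chr19:4510222-4510269 (plus strand, motif at -248): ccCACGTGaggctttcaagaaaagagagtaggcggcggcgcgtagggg
Ogdh and Pcx also had promoters without these letters. Of these 4 genes Slc25a1, Slc25a13 and Ogdh were lower and Pcx was higher. Of all members 51.6% were lower and 12.9% higher, and of all genes tested 28.6% and 24.0%. A match is a description of the sequence and not a binding site, and the mRNA-seq libraries do not measure binding. Idh3a, Me2, Slc1a5 and Gls2 were not among the promoters used.

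The citrate and isocitrate steps showed small differences, with 2 of 7 genes lower, 1 higher and 4 not called. Over all genes tested, 28.6% were lower and 24.0% higher (36.8% and 24.2% at a mean of at least 100). Aco1 is the cytosolic aconitase, which turns citrate into isocitrate and doubles as an iron-sensing RNA-binding protein. Its normalized values were 2253 and 2177 in wild-type and 1764 and 1848 in the mutant-labelled libraries. The groups did not overlap, and the log2 fold change was -0.29 (SE 0.05, adjusted p = 3.6e-05, limma). Idh1, the cytosolic NADP-dependent isocitrate dehydrogenase, went the other way, from 4656 and 4697 to 5145 and 5236 (log2 fold change 0.15, SE 0.04, adjusted p = 0.0036). Its mitochondrial counterpart Idh2 had 5234 and 5192 against 5300.1 and 5215, groups that overlap, with a log2 fold change of 0.01 (95% interval -0.07 to 0.10). The NAD-dependent enzyme of the cycle is built from the subunits Idh3a, Idh3b and Idh3g. All 3 had both mutant-labelled libraries under both wild-type libraries, as had 41.4% of all genes tested. Only Idh3g was called (3992 and 3822 against 3550.0 and 3456, log2 fold change -0.16, adjusted p = 0.0044). The log2 fold changes of Idh3a and Idh3b were -0.05 (95% interval -0.14 to 0.04) and -0.08 (-0.17 to 0.01). Citrate synthase, Cs, had 9874 and 9683 against 9264 and 9213 (log2 fold change -0.08, adjusted p = 0.074). The call for Idh3g was lost without Bmal1-/- replicate 2 (-0.14, adjusted p = 0.063), with equal library totals (0.065), in DESeq2 (0.060) and without limma's variance trend (0.10). That for Idh1 was lost without the trend (0.087), and Idh3b was called without wild-type replicate 1 (-0.12, adjusted p = 0.046) but was -0.04 without wild-type replicate 2 (adjusted p = 0.51).

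From 2-oxoglutarate to succinate, the subunits did not move together. The 2-oxoglutarate dehydrogenase complex is made of Ogdh (E1), Dlst (E2) and Dld (E3, which also serves the pyruvate dehydrogenase complex). Ogdh had 3631 and 3547 in wild-type against 3259 and 3182 (log2 fold change -0.16, SE 0.04, adjusted p = 0.0043). Dlst had 2883 and 2981 against 2564 and 2529.9 (-0.20, adjusted p = 6.8e-04). Dld was not called, at 2387 and 2458 against 2144 and 2326 (-0.12, adjusted p = 0.051). Both mutant-labelled libraries were under both wild-type libraries in each of the 3 genes, as in 41.4% of all genes tested.

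Succinyl-CoA synthetase, the step that makes ATP or GTP directly, pairs the shared alpha subunit Suclg1 with either the ATP-forming beta subunit Sucla2 or the GTP-forming beta subunit Suclg2. The alpha subunit was lower and both beta subunits were higher. Suclg1 fell from a wild-type pair of 2545 and 2695 to 2157 and 2249.5 in the mutant-labelled libraries (log2 fold change -0.25, SE 0.05, adjusted p = 1.8e-04). Sucla2 rose from 2299.8 and 2418 to 2966 and 3098 (0.36, SE 0.05, adjusted p = 1.8e-06). Suclg2 rose from 755 and 797 to 916 and 982 (0.29, SE 0.06, adjusted p = 5.8e-04). None of these genes had overlapping groups, which was also so for 76.0% of all genes tested. In mm9, Suclg1 lies at chr6:73198376-73226905 (plus strand), Suclg2 on the same chromosome at chr6:95423006-95668792 (minus strand) and Sucla2 at chr14:73925126-73995949 (plus strand). The ratio of 2 genes within a library does not depend on how the libraries were scaled. Sucla2 over Suclg1 was 0.904 and 0.897 in wild-type and 1.37 and 1.38 in the others, 1.53-fold higher. Suclg2 over Suclg1 was 0.297 and 0.296 against 0.425 and 0.437, or 1.45-fold higher. These ratios were picked after their values were seen and carry no test. The annotated pseudogene Gm15163 holds a stretch 99.1% identical to Suclg2 over 1302 bases, and its own reads came to between 1.46% and 2.36% of those of Suclg2, so reads could be shared between them. In this part of the cycle, the call for Ogdh was lost without Bmal1-/- replicate 2 (-0.14, adjusted p = 0.060), with equal library totals (0.066), in DESeq2 (0.064) and without the variance trend (0.088), and without the trend those for Dlst (0.054) and Suclg1 (0.051) were lost as well. Dld was called without wild-type replicate 1 (-0.14, adjusted p = 0.024) and without Bmal1-/- replicate 2 (-0.18, adjusted p = 0.029), but came to -0.06 without Bmal1-/- replicate 1 (adjusted p = 0.47).

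All 3 genes of the fumarate and malate steps were lower, and by similar amounts, against a share of 36.8% lower among genes at a mean of at least 100. Fh1, the fumarase that hydrates fumarate to malate, had 2917 and 3033 in wild-type and 2488 and 2486 in the mutant-labelled libraries (log2 fold change -0.26, SE 0.04, adjusted p = 6.2e-05). Mdh2, which oxidizes malate to oxaloacetate in the matrix, had 7683 and 7756 against 6616 and 6619 (-0.22, SE 0.04, adjusted p = 6.0e-05). Mdh1, its cytosolic counterpart, had 5543 and 5715 against 4742 and 4831 (-0.23, SE 0.04, adjusted p = 6.1e-05). The groups were apart by more than the spread between replicates in each gene, and the 3 calls held under every alternative run.

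The enzymes that move carbon between pyruvate, malate and phosphoenolpyruvate differed in direction. Pcx, the mitochondrial pyruvate carboxylase that refills oxaloacetate, had the lowest wild-type level per kilobase of the members, and its rise was of about the same size as that of Sucla2. Wild-type values of 484 and 505 stood against 666 and 606, 28.8% higher (log2 fold change 0.36, SE 0.07, adjusted p = 2.9e-04; 0.30 without Bmal1-/- replicate 1). Me2, the mitochondrial malic enzyme, which turns malate into pyruvate, went down from 2284 and 2346 to 1929.5 and 1852 (-0.29, SE 0.05, adjusted p = 3.1e-05). The cytosolic malic enzyme Me1, a source of NADPH, had 1386 and 1479 against 1509 and 1607 (0.12, adjusted p = 0.068). Me1 was therefore not called, although its groups did not overlap. Pck2, the mitochondrial enzyme that makes phosphoenolpyruvate from oxaloacetate, had 2829 and 2989 against 2778 and 2632 (-0.10, adjusted p = 0.067). Me1 was called under other scalings (equal library totals, 0.18, adjusted p = 0.0078) and without wild-type replicate 2 (0.17, adjusted p = 0.015), and Pck2 without wild-type replicate 1 (-0.14, adjusted p = 0.013). Other omissions went the opposite way. Me1 was 0.07 without wild-type replicate 1 (adjusted p = 0.31) and 0.08 without Bmal1-/- replicate 2 (adjusted p = 0.42). Pck2 was -0.07 without wild-type replicate 2 (adjusted p = 0.31) and -0.07 without Bmal1-/- replicate 2 (adjusted p = 0.41).

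Citrate export showed the largest difference among the members, in its carrier. Slc25a1, the carrier that takes citrate out of the mitochondrion in exchange for malate, had 3091 and 3219 in wild-type. The mutant-labelled libraries had 2078 and 2043, a difference of -34.7%, with groups far apart. The gene lies at chr16:17925304-17928312 on the minus strand in mm9. The log2 fold change was -0.61 (SE 0.05, 95% interval -0.71 to -0.52, adjusted p = 6.7e-10, limma), and it stayed between -0.64 and -0.55 over the alternatives. Counted from the lowest log2 fold change, it was gene 680 of the 14510 tested. The next enzyme, Acly, had 21312 and 19644 in wild-type and 20915 and 20674 in the others, groups that overlap. Its log2 fold change was 0.02 (95% interval -0.06 to 0.11, adjusted p = 0.66), and -0.04 without wild-type replicate 2. With quantile normalization it was 0.11 and called (adjusted p = 0.028). Slc25a1 over Acly within a library was 0.145 and 0.164 in wild-type and 0.0994 and 0.0988 in the mutant-labelled libraries, a ratio also picked after its values were seen.

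Among the glutamine and glutamate members, 4 of 5 were lower, against 28.6% of all genes tested (36.8% at a mean of at least 100). One of these calls, Got1, was lost under most alternatives. Slc1a5, a glutamine importer of the plasma membrane, was not called. It had 6677 and 6484 in wild-type against 6720.5 and 6606 (log2 fold change 0.02, 95% interval -0.06 to 0.10). Other transporters, of the wider list, are given further on. Gls2, the glutaminase that frees glutamate from glutamine, had 859.6 and 904 against 775 and 724 (-0.23, SE 0.06, adjusted p = 0.0038). Glud1, the glutamate dehydrogenase that yields 2-oxoglutarate in the matrix, had 8933 and 8928 against 7530.2 and 7736. The wild-type replicates of Glud1 lay close together, and its log2 fold change was -0.23 (SE 0.04, adjusted p = 4.7e-05). The aspartate aminotransferases Got1 (cytosol) and Got2 (matrix) swap amino groups between glutamate and oxaloacetate. Got2 had 5437 and 5601 against 4869.8 and 4953 (-0.17, SE 0.04, adjusted p = 0.0015). Got1 had 5204 and 5455 against 4798 and 5004 (-0.12, SE 0.04, adjusted p = 0.021), the weakest call among the members. The call for Got1 was lost under 9 of the 15 alternatives, among them without wild-type replicate 2 (-0.09, adjusted p = 0.12), without Bmal1-/- replicate 1 (-0.09, adjusted p = 0.20) and with equal library totals (-0.06, adjusted p = 0.24). Gls2 lost its call without Bmal1-/- replicate 2 (-0.19, adjusted p = 0.077), in DESeq2 (0.083), when no low genes were filtered out (0.051) and without the variance trend (0.066), the setting in which Got2 lost its call too (0.077).

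Among the mitochondrial carriers, the pair of aspartate-glutamate exchangers was lower. Slc25a12 had 1213 and 1147 in wild-type against 939 and 911 (log2 fold change -0.35, SE 0.06, adjusted p = 3.3e-05). Slc25a13 had 3197 and 3206 against 2712 and 2765 (-0.23, SE 0.04, adjusted p = 1.9e-04). Slc25a11, the 2-oxoglutarate/malate carrier, had 1483 and 1566 against 1442 and 1423, groups that do not overlap but without a call (-0.09, adjusted p = 0.16; -0.05 without wild-type replicate 2). The dicarboxylate carrier Slc25a10 was the member with the widest replicate spread. Its values were 508 and 437 in wild-type against 444 and 421 (-0.12, 95% interval -0.29 to 0.05), and 1 library decided the value. Without wild-type replicate 2 it was called (-0.23, adjusted p = 0.027), and without wild-type replicate 1 it was -0.013 (adjusted p = 0.92).

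The malate-aspartate shuttle, which carries the electrons of cytosolic NADH into the matrix, consists of 7 of these genes (Mdh1, Mdh2, Got1, Got2, Slc25a11, Slc25a12 and Slc25a13). Of them, 6 were lower and Slc25a11 was not called. Over all genes tested 28.6% were lower, and 36.8% at a mean of at least 100. The call for Got1 held under only 6 of the 15 alternatives, and that for Got2 was lost without the variance trend. Mdh1 and Mdh2 are also among the fumarate and malate genes above. In all 7 both mutant-labelled libraries lay under both wild-type libraries, as in 41.4% of all genes tested. The median log2 fold change of the 7 was -0.22, against -0.03 over all genes tested and -0.06 at a mean of at least 100. An exon of another gene overlaps Mdh1 and Slc25a11 on the other strand (Wdpcp and Rnf167), as it does Idh3b (Nop56), Me1 (A330041J22Rik), Gls2 (Spryd4) and Slc25a10 (Gm11788), and since the strand setting of the counting is not known, reads of such neighbours could not be told apart. The same holds for Pdha1, Pdpr, Mpc1, Lipt1, Acss1, Me3 and Glul among the genes named further on.

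In all, 6 pairs of related enzymes or carriers were compared within each library, which removes the scaling of libraries. With 2 libraries against 2, an exact 2-sided permutation test cannot go below p = 0.33, so none of these comparisons can reach 0.05. Me1 over Me2, cytosolic over mitochondrial malic enzyme, shifted most. It was 0.607 and 0.630 in wild-type and 0.782 and 0.868 in the mutant-labelled libraries, 1.33-fold higher (exact permutation p = 0.33). Idh1 over Idh2 was 0.890 and 0.905 against 0.971 and 1.004, or 1.10-fold higher, and Slc25a12 over Slc25a13 was 0.379 and 0.358 against 0.346 and 0.329 (exact permutation p = 0.33 for both). Got1 over Got2 was 1.03-fold and Sucla2 over Suclg2 1.05-fold higher, each without overlap between the groups. Mdh1 over Mdh2 was 0.722 and 0.737 against 0.717 and 0.730 (exact permutation p = 0.67), with groups that overlap.

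**Figure D4:**
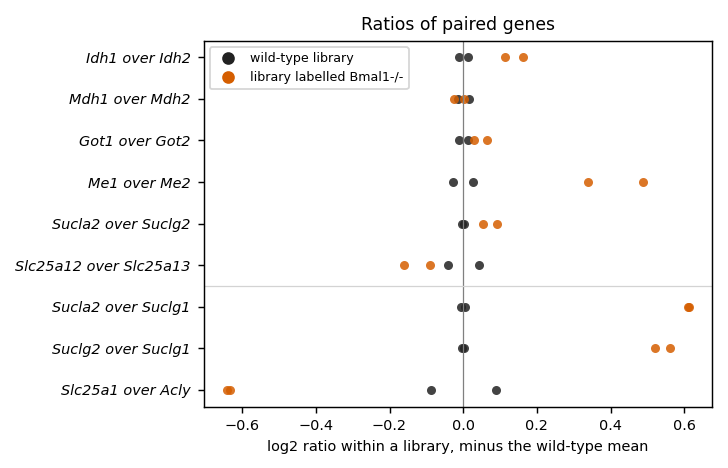
Log2 ratio of paired members within each library, minus the mean of the 2 wild-type libraries (x axis); black points are wild-type libraries and orange points are mutant-labelled libraries. The upper 6 rows are the pairs tested and the lower 3 rows, under the grey line, were picked after their values were seen; both beta subunits of succinyl-CoA synthetase stand furthest right, over the alpha subunit Suclg1.

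Another 45 genes of the same metabolism, a list that holds none of the members, were counted to see what surrounds them. Of these, 43 passed the filter, while Slc25a21 and Pck1 did not. By the test 8 were higher (18.6%), 14 lower (32.6%) and 21 not called, and 4 passed 2-fold, all of them higher. Over all genes tested 24.0% were higher and 28.6% lower, and 7.21% passed 2-fold. Most of the genes past 2-fold were higher there too, with 835 higher and 211 lower. In DESeq2 the counts were 8 higher and 8 lower of the 43, and over all genes 18.5% were higher and 17.5% lower. The count past 2-fold was 3 under 5 alternatives. Me3 was left out at a mean of at least 100, and Mpc1 came to 0.98 with pseudocount 10, 0.95 with quantile normalization, 0.99 when wild-type replicate 2 was left out and 0.95 when Bmal1-/- replicate 2 was.

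A large difference at a well-covered level was in Dhtkd1, which encodes an E1 subunit related to Ogdh that acts on 2-oxoadipate in the breakdown of lysine. It had 552 and 531 in wild-type and 3012 and 3019 in the mutant-labelled libraries, 5.57-fold higher (log2 fold change 2.48, SE 0.05, adjusted p = 4.0e-18). The gene lies on chromosome 2 from 5817161 to 5863838 in mm9, and an exon of Gm13267 overlaps it on the other strand. Beside it, Ogdh was slightly lower, so that Dhtkd1 over Ogdh within a library went from 0.152 and 0.150 to 0.924 and 0.949. The ratio was picked after its values were seen. A further paralog, Ogdhl, had 3593 and 3485 against 3463 and 3464 and was not called (-0.03, adjusted p = 0.56).

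The entry of pyruvate into the cycle held several of the other large differences of this list. Of its 13 genes, 5 were higher and 4 lower, and the median log2 fold change was 0.003. Over all genes tested 24.0% were higher and 28.6% lower. Pdp2, a phosphatase that activates the pyruvate dehydrogenase complex, rose from 1744 and 1528 to 4115 and 4161 (a log2 difference of 1.34, SE 0.05, adjusted p = 3.5e-14). Counted from the highest log2 fold change, it was gene 506 of the 14510 tested. Pdpr, a regulatory subunit of pyruvate dehydrogenase phosphatase, rose from 919.7 and 799.9 to 1216 and 1221 (0.51, adjusted p = 1.6e-06). Pdp1, another phosphatase of the complex, was not called, at 157 and 153 against 172 and 180 (0.18, adjusted p = 0.20). Pdk1, a kinase that switches the complex off, fell from 549 and 597 to 393 and 382 (-0.56, adjusted p = 3.6e-06). The other kinases of the complex did not share a direction: Pdk3 was lower (-0.24), Pdk4 higher (0.36) and Pdk2 not called (-0.03). Mpc1 (listed as Brp44l), a subunit of the mitochondrial pyruvate carrier, rose from 133 and 126 to 252 and 279 (1.03, SE 0.11, adjusted p = 2.2e-07). Its value is uncertain, because the annotated gene Gm3452 holds an identical stretch of 330 bases and had between 38.9% and 47.1% of the reads of Mpc1. The other carrier subunit, Mpc2 (listed as Brp44), was lower (-0.34, adjusted p = 0.0063). Of the subunits of the pyruvate dehydrogenase complex itself, Pdha1 was higher (0.26) and Pdhb lower (-0.14), while Dlat, Pdhx and Dld were not called.

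Succinate dehydrogenase, the enzyme of the cycle that is also complex II of the respiratory chain, had 3 of its 4 subunits lower, where 28.6% of all genes tested and 36.8% of those with a mean of at least 100 were lower. Sdhd, a membrane anchor, fell from 4625 and 4715 to 3364 and 3474 (a log2 difference of -0.45, SE 0.04, adjusted p = 2.3e-08). Sdhb, the iron-sulfur subunit, and Sdha, the flavoprotein, were lower by smaller amounts, at -0.38 for Sdhb (adjusted p = 7.9e-07) and -0.17 for Sdha (adjusted p = 7.8e-04). Sdhc, the other anchor, had 2135 and 2151 against 2139 and 2098 and was not called (-0.02, 95% interval -0.11 to 0.08).

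Among the remaining genes of this list, Slc25a22, a mitochondrial glutamate carrier, fell from 759 and 709.6 to 558 and 469 (a log2 difference of -0.52, adjusted p = 1.4e-05). Acss1, the mitochondrial acetyl-CoA synthetase, fell from 598 and 570.4 to 447 and 428 (-0.42, adjusted p = 7.3e-05). Lipt1, a lipoyltransferase for the lipoic acid that E2 subunits carry, fell from 116 and 125 to 82.7 and 76.3 (-0.60, adjusted p = 0.0022), a call lost in DESeq2 (-0.57, adjusted p = 0.063). Me3, a mitochondrial malic enzyme, rose from 3.16 and 6.37, which is 3 and 6 reads, to 19.7 and 40.1 (2.40, SE 0.44, adjusted p = 1.1e-04). Its mean was 6.27-fold higher, more than that of Dhtkd1, at a few reads in wild-type, and its log2 fold change ranged from 1.39 to 2.89 over the alternatives. The glutamine synthetase Glul was not called (0.02, adjusted p = 0.72). Of the amino acid transporters of the plasma membrane, Slc38a1 and Slc38a2, which import glutamine, were lower. Slc38a2 fell from 5195 and 5044 to 4206 and 4149 (-0.29, adjusted p = 5.0e-06), and Slc38a1 was at -0.14 (adjusted p = 0.013). Slc7a5 was not called (-0.02, adjusted p = 0.71). Genes of the succinate dehydrogenase, pyruvate dehydrogenase and glutamine groups that are named here beside the 10 genes of the fixed rule were chosen after their values were seen.

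**Figure D5:**
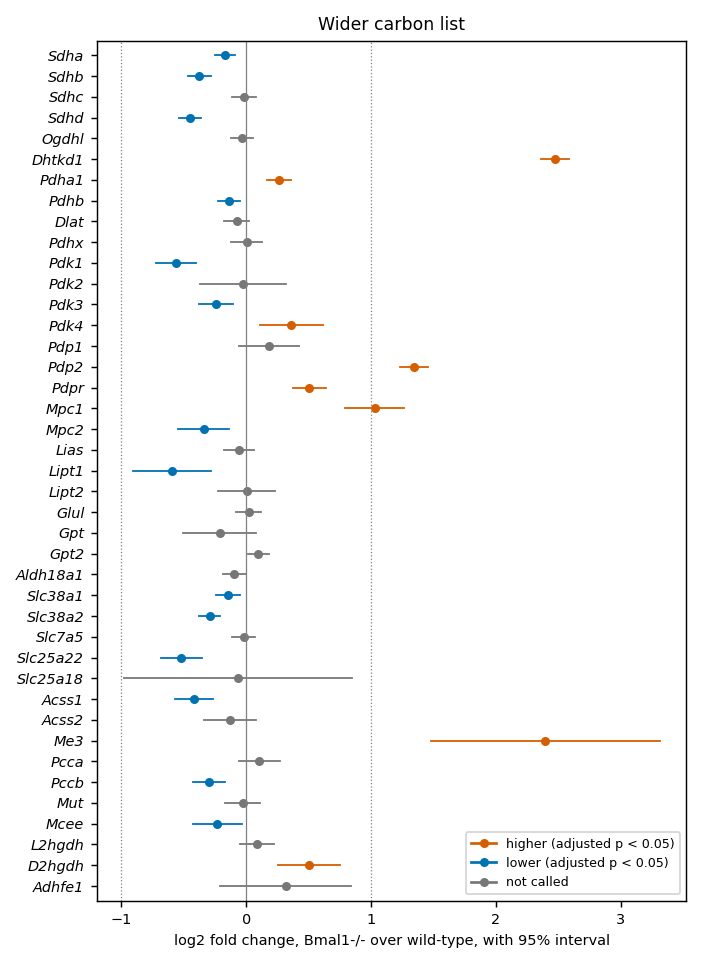
Log2 fold change of the tested genes of the wider list, without 2 that are not reported here, Bmal1-/- over wild-type (x axis), with the 95% interval from limma; orange is higher, blue lower and grey not called, and dotted lines mark 2-fold. Dhtkd1, Me3, Pdp2 and Mpc1 lie past 2-fold, and all other genes shown lie within it.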

How the data were processed

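mRNA of 2 wild-type and 2 Bmal1-/- cultures was sequenced as stranded libraries with paired reads. Alignment by the authors was to mm9, and the submitters' processing notes list STAR 2.5.2b and cutadapt 1.9.1. The deposited table gives a normalized signal, that is, reads per gene over one TMM factor per library (NOISeq). The tool and the strand setting of the counting are not given in the sources used here. An exon of another gene overlaps 6 members on the other strand.

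All 37310 identifiers matched GENCODE M1 (NCBIM37), which gave symbols and exon lengths. Dividing by the smallest nonzero value of each library gave whole numbers throughout (100% of values, tolerance 0.01 of a read), which were used as whole reads. The floor of 3 reads corresponds to normalized values of 2.82 to 3.19. Intervals are 95% intervals of limma and cover the spread between libraries only.

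The main test was limma 3.58.1 in R 4.3.3 (intensity trend, 18.1 prior degrees of freedom, pseudocount 1, mean of at least 10). Fold changes on this scale understate those of low genes. The 15 alternatives were no filter, a mean of at least 100, pseudocounts of 0.5 and 10, median-ratio size factors, equal library totals, quantile normalization, a fit without the trend, a block for the replicate number, leaving out each library, and 2 count tests on whole reads, DESeq2 1.42.0 and the quasi-likelihood test of edgeR 4.0.16. The fits were tested on simulated data. Near-identical copies were sought with blastn among annotated exons (at least 95% identity over at least 150 bases) and found for 2 members, Suclg2 and Got2.

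The members, the wider list and the markers were chosen with earlier results of these data known. Named genes are all members and, of the wider list, those past 2-fold and the 5 highest and 5 lowest called genes without overlap. The values of 2 genes of the wider list, which its counts include, are not reported here. Python 3.11.15, pandas 2.3.3, scipy 1.17.1 and matplotlib 3.10.9 were used.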

Additional observations from a re-analysis of the deposited data

How the results depend on the processing

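Of the 20 members called, 12 kept their call and direction under all 15 alternatives: Aco1, Suclg2, Sucla2, Fh1, Mdh1, Mdh2, Me2, Pcx, Slc25a1, Glud1, Slc25a12 and Slc25a13. The direction of every call held. The count of lower members was 16 and came to 9 in limma without the variance trend, where lower calls over all genes also went from 4151 to 2515 of 14510. The median log2 fold change of the members was -0.061 with equal library totals, a setting that also moved the median of all genes tested to 0.03, and lay between -0.16 and -0.14 with 1 library left out. In the wider list the count of lower genes was 8 in DESeq2, against 14, and over all genes it was 2536 against 4151. Directions turned for 3 members that were not called: Idh3a was 0.013 with equal library totals, and without wild-type replicate 2 Acly was -0.036 and Slc1a5 -0.0030. With 1 library left out, Acly ranged from -0.036 to 0.082 and Slc1a5 from -0.0030 to 0.039.

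The replicate numbers were tried as a block. Same-numbered libraries did not deviate together (correlation -0.01 across genes), so the numbers are not taken to pair the samples. With the replicate block 18 members were lower and 5 higher, and the median log2 fold change stayed -0.12.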
